A study of Mus musculus with 8 samples.

Results

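The genes described here carry out antigen presentation by MHC class I, and there were 10 of them among the 55536 genes of the count table: the class I chains H2-K1, H2-D1 and B2m, the peptide transporter genes Tap1 and Tap2, the loading factor Tapbp, the immunoproteasome genes Psmb8 and Psmb9, the class I transactivator Nlrc5, and Cd274, which encodes the checkpoint ligand PD-L1. They were chosen by name, and all 10 passed the filter on low counts. RNA was measured in MIN6 cells, labelled wild type, to ask how misexpression of the zinc-finger factor Klf4 changes the transcriptome. MIN6 is a mouse β-cell line from an insulinoma that arose in mice with the large T antigen of SV40 in their β cells. One protocol field names islets as the source of RNA, while each sample is labelled MIN6. Cells were transfected for 48 h with Lipofectamine 3000, a lipid reagent, and carried either the empty plasmid pcDNA 3 (control, 4 libraries) or the expression plasmid pGloMyc-Klf4 (Klf4-transfected, 4 libraries). Replicates 1 and 2 of each group were labelled as batch 1 and replicates 3 and 4 as batch 2. Both groups therefore received lipid and plasmid DNA, no untransfected cells were compared, and the 2 plasmids differ by name in more than the Klf4 insert. The share of cells that took up a plasmid was not given.

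Nearly every nucleated cell shows peptides from its own proteins on class I molecules, each made of a heavy chain and the shared light chain β2-microglobulin. Peptides are cut by the proteasome, carried into the endoplasmic reticulum by the TAP1/TAP2 transporter, and loaded with the help of tapasin, which Tapbp encodes. Interferons raise most genes of this pathway, in part through IRF1, and NLRC5 acts at class I promoters with the RFX, CREB and NF-Y factors. In β cells, the targets of cytotoxic T cells in type 1 diabetes, high class I expression is a known feature of inflamed islets.

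Of the 10 genes, 7 were higher in Klf4-transfected cells and 0 were lower at an adjusted p under 0.05 (edgeR's quasi-likelihood test with a batch term, Benjamini-Hochberg adjustment over all 18266 tested genes). Without adjustment the counts at the same level were also 7 and 0, as they were with DESeq2 and with limma-voom. The changes were small: the median log2 fold change of the 10 was 0.17, against -0.01 over all tested genes. Much of the transcriptome differed between the groups: 36.6% of tested genes were called, 21.1% as higher and 15.5% as lower. By their values in single libraries, all 4 Klf4-transfected libraries lay above all 4 control libraries for 4 of the 10 genes, H2-K1, Tap1, Tapbp and Psmb8, against 17.2% of tested genes. They lay below all controls for none of the 10, against 8.93% of tested genes. The libraries separated upward within both batches for 6 of 10, these 4 with H2-D1 and Nlrc5, against 22.1% of tested genes. In bulk RNA, a change in the number of cells that express a gene and a change in RNA per cell cannot be told apart.

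**Figure D1:**
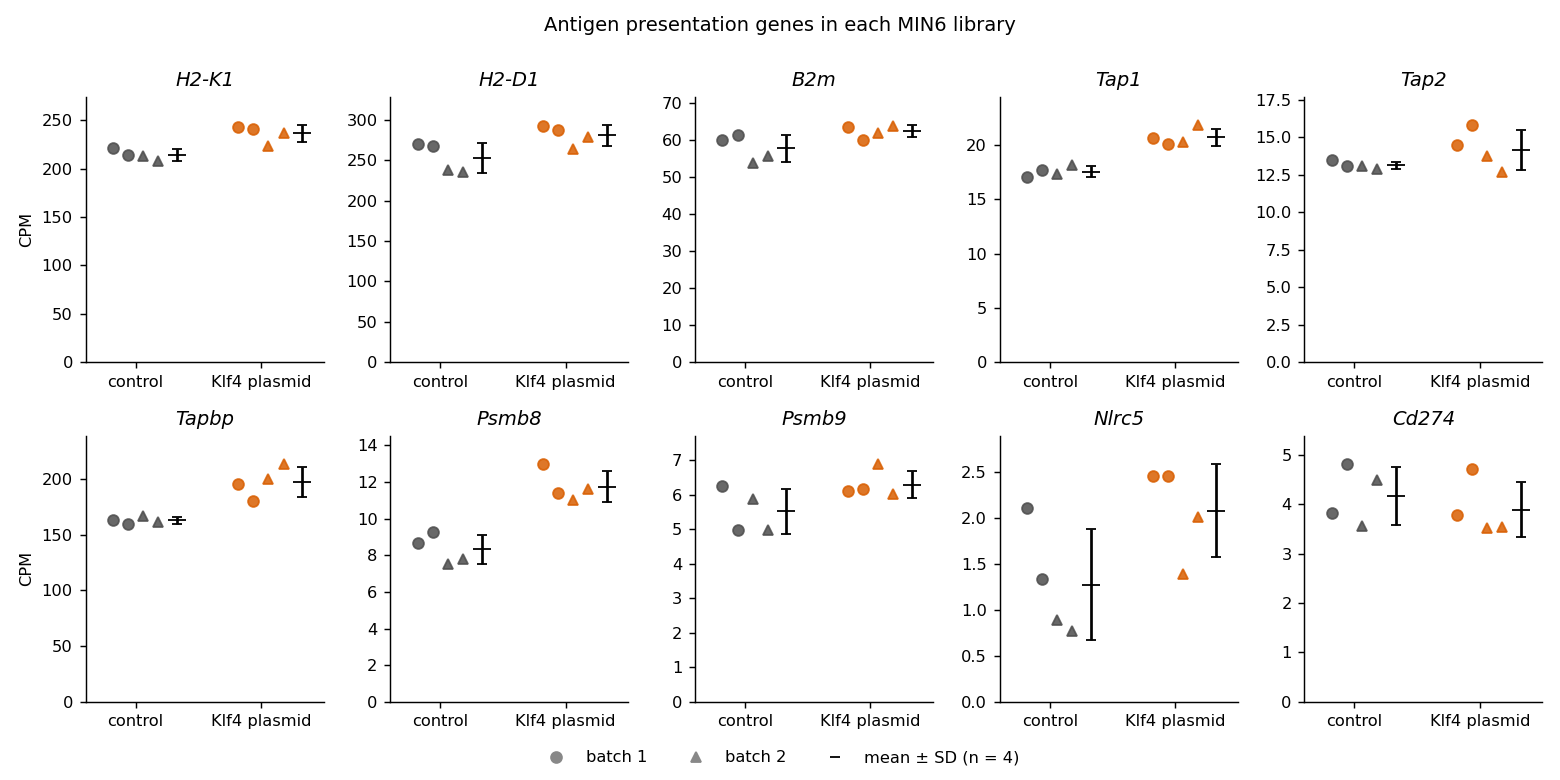
Level, in CPM (the read count relative to the TMM-scaled size of its library), of each of the 10 genes in each library, with an axis from 0 in every panel. Points are single libraries, circles batch 1 and triangles batch 2, and the bars at the right of each group are the mean ± SD (n = 4); the Klf4-transfected libraries lie above every control library for H2-K1, Tap1, Tapbp and Psmb8.

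Total counts ranged from 45417853 to 52731176 per library, and libraries of one group differed more between batches than within them (chi-square per degree of freedom 17.4 to 23.3 against 4.23 to 5.71). Klf4 itself measured 42.8, 42.3, 39.1 and 36.1 CPM in control replicates 1 to 4 and 4873, 4532, 4903 and 5853 CPM in Klf4-transfected replicates 1 to 4. That is a 126-fold difference (log2 fold change 6.97 ± 0.07 SE, adjusted p = 1.21e-25 by edgeR), and a count per gene does not separate plasmid from endogenous transcripts. The β-cell identity of the line was seen in Ins2, at 16807 CPM on average in controls and 16534 CPM with Klf4, and the sum over 12 β-cell markers overlapped between groups. Of those 12, 6 were called lower and 0 higher with edgeR, DESeq2 and limma-voom alike, against 15.5% and 21.1% of all genes with edgeR. Without adjustment 7 were lower and 0 higher, against 3760 and 4326 of all 18266 tested genes. The changes were small, with a median log2 fold change of -0.07 and a lowest value of -0.22. Without the batch term 3 were called lower, and with scaling factors from abundant genes 5. With scaling factors taken from abundant genes alone, 72.7% of called genes were higher, against 57.7% in the analysis reported here.

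H2-K1 and H2-D1 encode the classical class I heavy chains, which hold the peptide at the cell surface, and B2m encodes the light chain. H2-K1 (ENSMUSG00000061232, chr17:33996017-34000347, minus strand, GRCm38) measured 221, 214, 213 and 207 CPM in control replicates 1 to 4 and 243, 241, 224 and 237 CPM in Klf4-transfected replicates 1 to 4. The groups did not overlap, and the mean rose from 214 ± 5.7 CPM in controls to 236 ± 8.61 CPM with Klf4 (SD, n = 4; log2 fold change 0.14 ± 0.03 SE, adjusted p = 0.000229, edgeR). The rise of H2-K1 was of like size in both batches, 0.15 and 0.14 on the log2 scale. H2-D1 (ENSMUSG00000073411, chr17:35262730-35267499, plus strand) measured 270.2, 267, 237 and 235 CPM in the control replicates and 292, 287, 264 and 279 CPM in the Klf4-transfected ones. Klf4-transfected replicate 3 lay below control replicates 1 and 2, which belong to the other batch, while within each batch both Klf4-transfected libraries were above both controls. The log2 fold change of H2-D1 was 0.15 (± 0.03 SE, adjusted p by edgeR = 0.000128), from 253 ± 18.8 CPM in controls to 281 ± 12.7 CPM with Klf4 (SD, n = 4). Without the batch term this call was lost (adjusted p = 0.0666).

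B2m (ENSMUSG00000060802, chr2:122147686-122153083, plus strand) measured 59.8, 61.4, 53.8 and 55.6 CPM in the control replicates and 63.5, 60.1, 61.9 and 63.7 CPM in the Klf4-transfected ones. The groups overlapped in batch 1, where the log2 difference was 0.02, and were apart in batch 2, where it was 0.21. The pooled log2 fold change was 0.11 (± 0.04 SE, adjusted p by edgeR = 0.0258), and the difference between batches did not pass (interaction, unadjusted p = 0.0173, adjusted p = 0.328). The B2m call was lost when any of control replicates 1, 3 and 4 or Klf4-transfected replicates 1, 3 and 4 was left out (edgeR adjusted p from 0.064 to 0.189) and without the batch term (adjusted p = 0.128). Its log2 fold change was 0.074 without control replicate 3 and 0.20 with a correction for GC and length. Per exonic length, the summed heavy chains H2-K1 and H2-D1 stood at 2.59, 2.47, 2.63 and 2.50 times the B2m level in control replicates and at 2.66, 2.77, 2.48 and 2.55 times in Klf4-transfected replicates, so this ratio overlapped between groups.

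The promoters of the chain genes are shown because all 3 chain genes were called higher. The first sequence lies before the RefSeq start of H2-K1 (chr17:34000348-34000597, minus strand) and the second before that of B2m (chr2:122147437-122147686, plus strand), both on GRCm38.p6 and written 5′ to 3′. H2-K1 has 2 RefSeq starts, and the start furthest upstream was used for its window and distances. Capitals mark matches to 3 motifs searched on both strands: the Krüppel-like factor motif CCNCNCCC, the NF-κB consensus, and the interferon-stimulated response element (TTTC, any 2 bases, TTTC).

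H2-K1: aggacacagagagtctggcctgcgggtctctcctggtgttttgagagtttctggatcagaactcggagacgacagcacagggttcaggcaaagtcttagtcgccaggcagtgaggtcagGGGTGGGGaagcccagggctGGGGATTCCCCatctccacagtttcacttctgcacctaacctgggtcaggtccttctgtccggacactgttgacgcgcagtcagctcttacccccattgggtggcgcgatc
B2m: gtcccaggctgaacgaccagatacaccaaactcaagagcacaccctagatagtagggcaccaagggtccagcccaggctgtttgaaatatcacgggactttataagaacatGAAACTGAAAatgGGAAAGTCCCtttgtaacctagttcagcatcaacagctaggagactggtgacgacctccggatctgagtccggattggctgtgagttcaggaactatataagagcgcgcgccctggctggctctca

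In H2-K1 the first capital run is a Krüppel-like factor match and the second an NF-κB match. In B2m the first is a match to the interferon-stimulated response element letters and the second an NF-κB match. The same pair of H2-K1 matches stood before H2-D1. The 2 stretches of 30 bases below, from 131 to 102 bases before the H2-K1 start (chr17:34000449-34000478, minus strand) and from 191 to 162 bases before the H2-D1 start (chr17:35262903-35262932, plus strand), were the same in every letter. The H2-D1 stretch lies inside the gene span given above, which begins upstream of the RefSeq start.

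H2-K1: GGGTGGGGaagcccagggctGGGGATTCCC
H2-D1: GGGTGGGGaagcccagggctGGGGATTCCC

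RefSeq gave a promoter window for 8 of the 10 genes, all but Tap2 and Nlrc5. In the 250 bases before the start, the Krüppel-like factor letters, which also fall in many GC boxes, were found in 6 of 8 (H2-K1, H2-D1, Tap1, Psmb8, Psmb9 and Cd274), against 45.9% of all 32851 promoter windows of that length. The 8 genes were counted at 1 window each, while the 32851 windows were not reduced to 1 per gene. The NF-κB consensus was found in 3 of 8, the chain genes H2-K1, H2-D1 and B2m, against 7.25% of windows. The interferon-stimulated response element was found in 1 of 8, B2m, against 2.98%. Of the class I promoter modules that NLRC5 works through, the X2 box letters TGACGC stood in H2-K1 and H2-D1 (2 of 8, against 6.12% of windows), and the Y box letters ATTGG in 6 of 8, against 33.8%. The windows of Tap1 and Psmb9 overlap, and their Krüppel-like factor and Y box matches are the same sites read on opposite strands. The windows of H2-K1 and H2-D1 share the stretch shown above. The matches counted over the 8 windows are therefore not independent of each other. These matches describe the letters of the windows and no binding was measured.

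Tap1 and Tap2 encode the transporter that moves cytosolic peptides into the endoplasmic reticulum, and Tapbp encodes tapasin, which holds empty class I molecules at the transporter. Tap1 (ENSMUSG00000037321, chr17:34187553-34197225, plus strand) measured 17, 17.7, 17.4 and 18.2 CPM in control replicates and 20.6, 20.1, 20.3 and 21.8 CPM in Klf4-transfected replicates. Its groups did not overlap, with a log2 fold change of 0.24 (± 0.05 SE, adjusted p by edgeR = 0.000678) that was 0.23 in batch 1 and 0.26 in batch 2. Tap2 (ENSMUSG00000024339, chr17:34203527-34216321, plus strand), the other subunit, measured 13.5, 13.1, 13.1 and 12.9 CPM in the control replicates and 14.5, 15.8, 13.7 and 12.7 CPM in the Klf4-transfected ones. Klf4-transfected replicate 4 was the lowest of all 8 libraries and replicate 2 the highest, and Tap2 did not pass (log2 fold change 0.11, 95% interval -0.02 to 0.23, edgeR adjusted p = 0.198). Whether Tap1 and Tap2 differed from each other in their change was not tested, and their intervals overlap.

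Tapbp (ENSMUSG00000024308, chr17:33915899-33929292, plus strand) measured 164, 159.7, 167 and 161 CPM in control replicates and 195, 180.3, 199.9 and 213 CPM in Klf4-transfected replicates. Every Klf4-transfected library exceeded every control, and the adjusted p was the lowest of the 10 genes (log2 fold change 0.27 ± 0.03 SE, 1.21-fold, edgeR adjusted p = 6.02e-07). Exons of Tapbp share 904 bases with Gm19412 and 149 with Zbtb22, so some of its reads could not be assigned with certainty.

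Tapbp was not joined by the other listed genes of peptide loading and trimming at this threshold. Of 10 such genes, all tested, 0 were called in either direction (edgeR), against 36.6% of all genes. DESeq2 and limma-voom also called 0, and 2 had an unadjusted p under 0.05, both with values below 0. This list depended on the scaling: with factors from abundant genes 4 were called higher, and with DESeq2's size factors 2 were called lower. Leaving out single libraries gave from 0 to 2 calls. Its most abundant gene, Calr, which encodes the chaperone calreticulin, measured 1631 ± 43.9 CPM in controls and 1581 ± 134 CPM with Klf4 (SD, n = 4; log2 fold change -0.05, edgeR adjusted p = 0.185). Calr was called lower without control replicate 2 (adjusted p = 0.015) and with no filter on low counts (adjusted p = 0.0235).

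**Figure D2:**
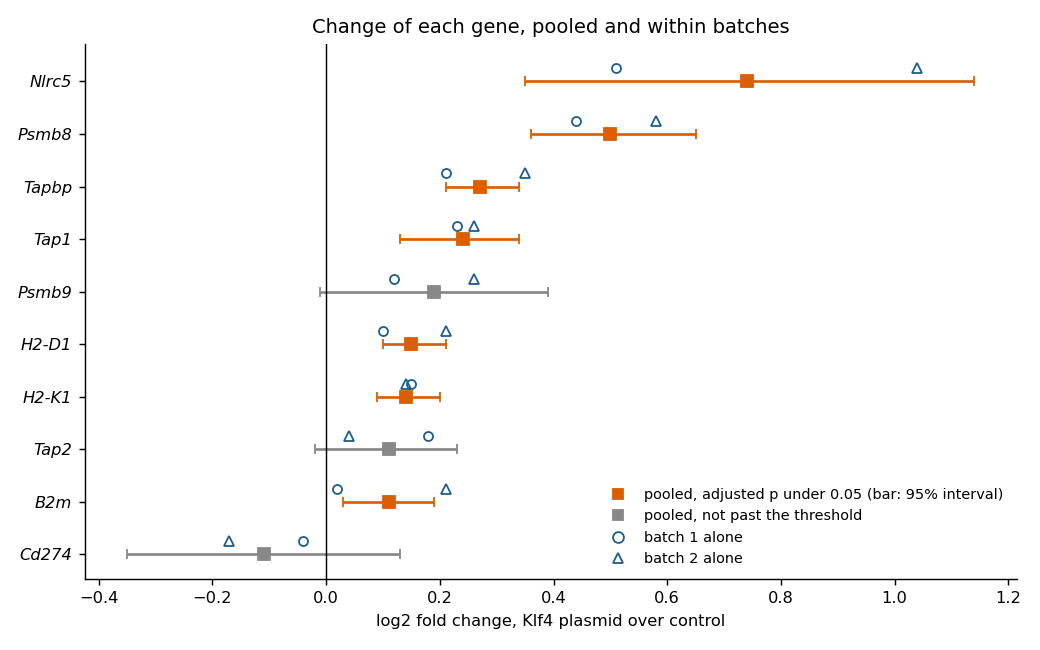
Log2 fold change of each of the 10 genes, Klf4-transfected over control, with 95% intervals from edgeR (squares, orange where the adjusted p is under 0.05) and the values within batch 1 (open circles) and batch 2 (open triangles). Nlrc5 shows the widest interval, 0.35 to 1.14, and Cd274 is the gene whose value lies below 0, at -0.11.

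The immunoproteasome is a form of the proteasome in which 3 inducible catalytic subunits replace constitutive ones: PSMB8 replaces PSMB5, PSMB9 replaces PSMB6 and PSMB10 replaces PSMB7. Its cuts favour peptide ends that fit class I molecules. Psmb8 (ENSMUSG00000024338, chr17:34197721-34201454, plus strand) measured 8.69, 9.29, 7.53 and 7.79 CPM in control replicates and 13, 11.4, 11 and 11.6 CPM in Klf4-transfected replicates. The groups did not overlap, and the 1.42-fold rise (log2 fold change 0.50 ± 0.07 SE, edgeR adjusted p = 4.21e-06) was 0.44 in batch 1 and 0.58 in batch 2 on the log2 scale. Psmb9 (ENSMUSG00000096727, chr17:34181987-34187764, minus strand) measured 6.27, 4.99, 5.88 and 4.97 CPM in the control replicates and 6.12, 6.16, 6.88 and 6.03 CPM in the Klf4-transfected ones. Control replicate 1 lay above 3 of the 4 Klf4-transfected libraries, and Psmb9 did not pass (log2 fold change 0.19, 95% interval -0.01 to 0.39, edgeR adjusted p = 0.134). The third inducible subunit, Psmb10, rose from 8.45 ± 1.08 CPM in controls to 9.997 ± 1.4 CPM with Klf4 (SD, n = 4; log2 fold change 0.24 ± 0.07 SE, adjusted p = 0.00928, edgeR), a call that was lost without the batch term (adjusted p = 0.178).

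The constitutive subunits did not pass. Psmb5 measured 84.9 ± 3.24 CPM in controls and 88.8 ± 1.78 CPM with Klf4 (SD, n = 4; log2 fold change 0.06, edgeR adjusted p = 0.125), and it was called higher with factors from abundant genes (adjusted p = 0.0199). Psmb6 had a log2 fold change of -0.02 (edgeR adjusted p = 0.631) and Psmb7 of -0.02 (edgeR adjusted p = 0.676), and both were slightly above 0 under other scalings. About 54.1% of the 50-base words of Psmb5 also occur in transcripts of other genes, so its level is uncertain.

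Per exonic length, Psmb8 stood at 2.68%, 3.08%, 2.28% and 2.42% of Psmb5 in control replicates and at 3.86%, 3.51%, 3.29% and 3.42% in Klf4-transfected replicates. The inducible subunit was thus a small fraction in both groups, and the groups did not overlap (1.35-fold, 2-sided exact permutation p = 0.0286, the smallest that 4 against 4 can give, 0.0857 adjusted over the 3 ratios). The Psmb9 to Psmb6 ratio was 1.39% ± 0.172 in controls and 1.60% ± 0.112 with Klf4 (SD, n = 4; exact permutation p = 0.114, adjusted 0.114). The Psmb10 to Psmb7 ratio was 11.4% ± 1.39 and 13.7% ± 1.77 (SD, n = 4; exact permutation p = 0.114, adjusted 0.114), with log2 differences of 0.23 in batch 1 and 0.29 in batch 2. None of the 3 ratios passed after adjustment. A ratio at the smallest p of 0.0286 could not pass unless another ratio was also at that smallest p. With relabelling kept within batches the smallest possible p is 0.0556, so no ratio could pass; Psmb8 to Psmb5 and Psmb10 to Psmb7 were at that smallest exact permutation p, and Psmb9 to Psmb6 was at 0.167.

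**Figure D3:**
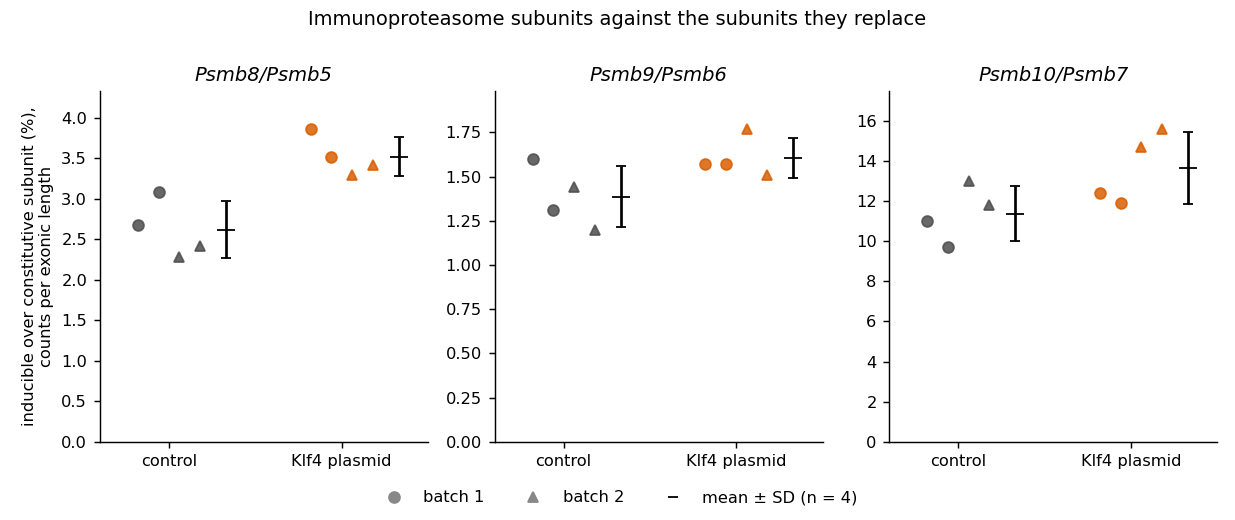
Level of each inducible proteasome subunit as a percentage of the constitutive subunit it replaces, from counts per exonic length, in each library (circles batch 1, triangles batch 2, bars mean ± SD, n = 4). The Psmb8 to Psmb5 ratio lies at 2.28% to 3.08% in control and at 3.29% to 3.86% in Klf4-transfected libraries, while the groups overlap for the other 2 ratios.

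Across 20 other genes of the proteasome core and its activators, Psmb10 among them, 3 were called higher and 2 lower (edgeR), fewer than the 36.6% of all genes called, with a median log2 fold change of -0.01. Psme2, a subunit of the interferon-inducible PA28 activator, rose from 67.2 ± 3.58 CPM in controls to 76.3 ± 5.16 CPM with Klf4 (SD, n = 4; log2 fold change 0.18 ± 0.03 SE, adjusted p = 0.000186, edgeR). Pomp, the proteasome assembly chaperone, was also called (log2 fold change 0.09, edgeR adjusted p = 0.0288) and was named after its values were seen. Its call was lost without any of 6 libraries, control replicates 1, 3 and 4 and Klf4-transfected replicates 1, 3 and 4 (adjusted p from 0.0502 to 0.25). The core subunit Psma4 (log2 fold change -0.10, edgeR adjusted p = 0.00936) and the PA28γ activator Psme3 (log2 fold change -0.10, adjusted p = 0.00809) fell, and both calls were lost with factors from abundant genes (adjusted p = 0.0849 and 0.0837), that of Psma4 also with a correction for GC and length (adjusted p = 0.198).

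Psmb9, Tap1, Psmb8 and Tap2 lie side by side on chromosome 17. Psmb9 and Tap1 are transcribed away from each other from RefSeq starts with 225 bases between them (34187330 and 34187556), so their promoter windows overlap, and their exons overlap by 212 bases on opposite strands. The strand setting of the counting is not given in the sources used here, so reads from that overlap could not be told apart. Exons of Psmb8 and Tap2 overlap other annotated genes by 498 and 698 bases, those of Cd274 by 511 and those of Nlrc5 by 78, and their counts are uncertain to that extent. Short stretches are shown for Tap1, from 189 to 160 and from 68 to 39 bases before its start (chr17:34187367-34187396 and chr17:34187488-34187517, plus strand), with Krüppel-like factor matches in capitals. For Psmb8 the stretch from 107 to 78 bases before its RefSeq start (chr17:34198088-34198117, plus strand) is shown, with the interferon-γ-activated site TTCNNNGAA in capitals. This Psmb8 stretch lies inside the gene span given above, which begins upstream of the RefSeq start.

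Tap1: gcagactgaggCCCCGCCCcatcatcgcgc
Tap1: ccctcaatctgGGGTGGGGcctgggatggg
Psmb8: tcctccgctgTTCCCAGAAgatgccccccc

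The activated-site letters stood in the window of Psmb8 alone among the 8 genes with a window, against 7.02% of all windows. Of the pair that shares a promoter region, Tap1 passed the test and Psmb9 did not. The difference between Tap1 and Psmb9 was not tested, and the interval of Psmb9 includes the value of Tap1.

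Nlrc5 (ENSMUSG00000074151, chromosome 8, 94434356 to 94527272, plus strand) encodes the NOD-like receptor protein that acts as transactivator of class I genes. It was the scarcest of the 10, with 99, 65, 44 and 37 counts in control replicates 1 to 4 and 127, 111, 73 and 106 counts in Klf4-transfected replicates 1 to 4. In CPM these were 2.1, 1.34, 0.893 and 0.767 in control and 2.46, 2.45, 1.39 and 2.01 in Klf4-transfected libraries. Control replicate 1 lay above Klf4-transfected replicates 3 and 4 of the other batch, and within each batch both Klf4-transfected libraries were higher. Nlrc5 had the largest fold change of the 10, 1.67-fold, and also the least certain (log2 fold change 0.74 ± 0.19 SE, edgeR, adjusted p = 0.00343). Its value was 0.51 in batch 1 and 1.04 in batch 2 (interaction adjusted p = 0.665), and the call was lost without the batch term (adjusted p = 0.122).

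Of 9 tested partners of NLRC5 and regulators of class I promoters, 3 were called (edgeR), near the share of all genes. Ezh2, the histone methyltransferase of Polycomb complex PRC2, rose from 79.3 ± 1.62 CPM in controls to 90.4 ± 1.81 CPM with Klf4 (SD, n = 4; log2 fold change 0.19 ± 0.03 SE, adjusted p = 3.8e-05, edgeR). Atf1, a CREB family factor, fell from 31.8 ± 1.98 CPM in controls to 26.6 ± 1.56 CPM with Klf4 (SD, n = 4; log2 fold change -0.26 ± 0.05 SE, adjusted p = 0.000249, edgeR). Nfya, a subunit of the Y-box factor NF-Y, was called higher (log2 fold change 0.12 ± 0.04 SE, adjusted p = 0.015, edgeR), but the call was lost without any of control replicates 1, 2 and 4 or Klf4-transfected replicates 2 and 3 (adjusted p from 0.056 to 0.085). The RFX genes Rfx5, Rfxap and Rfxank did not pass.

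Cd274 (ENSMUSG00000016496, chr19:29367455-29388095, plus strand) encodes PD-L1, which restrains T cells through PD-1 and is a well-known target of interferon-γ. It measured 3.82, 4.81, 3.55 and 4.5 CPM in control replicates and 3.77, 4.71, 3.52 and 3.55 CPM in Klf4-transfected replicates. The groups overlapped in batch 1, and in batch 2 both Klf4-transfected libraries lay just under the lower control. Cd274 did not pass (log2 fold change -0.11, 95% interval -0.35 to 0.13, edgeR adjusted p = 0.521). Among 14 tested checkpoint ligands and costimulatory genes other than Cd274, 8 were called higher and 0 lower (edgeR), against 21.1% and 15.5% of all genes. With DESeq2 or limma-voom 7 and 0 were called. Without adjustment the counts were 8 and 0, against 4326 higher and 3760 lower of all 18266 tested genes. Lgals9, which encodes the TIM-3 ligand galectin-9, rose from 1.03 ± 0.349 CPM in controls to 27.1 ± 6.24 CPM with Klf4 (SD, n = 4; log2 fold change 4.72 ± 0.11 SE, adjusted p = 1.31e-19, edgeR). Icosl, the ligand of the costimulatory receptor ICOS, rose 2.84-fold (adjusted p = 9.42e-12), Ceacam1 1.91-fold (adjusted p = 1e-13) and Tnfsf9, the 4-1BB ligand, 1.37-fold (adjusted p = 0.000107). Cd47, the abundant "don't eat me" signal, had a log2 fold change of -0.04 (edgeR adjusted p = 0.382).

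By the interaction term, 0 of the 10 genes passed at an adjusted p under 0.05 with edgeR and with DESeq2. Of all tested genes 0.766% passed (edgeR), so a count of 0 among 10 does not show that the changes were alike in both batches. Of the 10, 1 gene, B2m, had an unadjusted p under 0.05 with either tool, and 3 genes had one with a filter at 1 CPM (edgeR). Klf4 itself was raised more in batch 2 than in batch 1, by 7.17 against 6.78 on the log2 scale when each batch was fitted alone (interaction adjusted p = 0.0057). Of the 7 called genes, H2-D1, B2m, Tap1, Tapbp, Nlrc5 and Psmb8 also had the larger value in batch 2 and H2-K1 the smaller, and whether the amount of Klf4 played a part was not tested.

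Per exonic length, as CPM per kilobase of exon (RPKM), the control levels ranked H2-D1 (97.9 ± 7.28), H2-K1 (72.8 ± 1.94), B2m (67 ± 4.13), Tapbp (44.8 ± 0.838), Tap2 (3.47 ± 0.0657), Tap1 (3.21 ± 0.0892), Psmb8 (2.46 ± 0.24), Psmb9 (1.51 ± 0.178), Cd274 (1.15 ± 0.161) and Nlrc5 (0.15 ± 0.0711; each SD, n = 4). The 4 control libraries of neighbours overlapped in range only for H2-K1 and B2m. The chains and tapasin were thus more than an order of magnitude above the transporter and the inducible proteasome subunits. In Klf4-transfected libraries Tap1 (3.78 ± 0.142), Tap2 (3.75 ± 0.35) and Psmb8 (3.48 ± 0.251 RPKM) overlapped one another in range.

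Other class I and class I-like chains include the Qa and T-region molecules, some of which present a narrow set of peptides or serve as ligands of natural killer and unconventional T cells. Over the 10 lists of related genes as a whole, 135 genes were tested, 48 were called higher and 8 lower (41.5% in all, edgeR), and the median log2 fold change was 0.09. Of 19 other chain genes, 12 were tested, 5 were called higher and 0 lower (edgeR), against 4 and 0 with DESeq2, 5 and 0 with limma-voom and 5 and 0 without adjustment. The 41.7% called lies near the 36.6% of all genes, and the median log2 fold change was 0.13. H2-T23, the mouse Qa-1 chain that engages NKG2A, measured 11.3, 10.7, 9.82 and 8.47 CPM in control replicates and 17.2, 17.5, 18.4 and 20.005 CPM in Klf4-transfected replicates. The groups of H2-T23 did not overlap (log2 fold change 0.86 ± 0.08 SE, adjusted p = 4.54e-09, edgeR), and the difference was 0.64 in batch 1 and 1.08 in batch 2 on the log2 scale (interaction adjusted p = 0.12). H2-Q2 (log2 fold change 0.52, adjusted p = 1.39e-06), H2-Q6 (0.39, adjusted p = 0.000183) and H2-Q4 (0.16, adjusted p = 0.00382) were the other chains with groups that did not overlap (edgeR). The fifth call, Fcgrt, the neonatal Fc receptor, was named after its values were seen. It rested on few counts (adjusted p = 0.0393), and was lost with the replicate block (adjusted p = 0.0535) and without any single library other than control replicate 1 (adjusted p from 0.052 to 0.131). The Qa genes resemble each other and H2-K1 and H2-D1: 9.63% of the 50-base words of H2-K1 and 12.8% of those of H2-D1 also occur in transcripts of other genes, so reads may have been split among them.

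**Figure D4:**
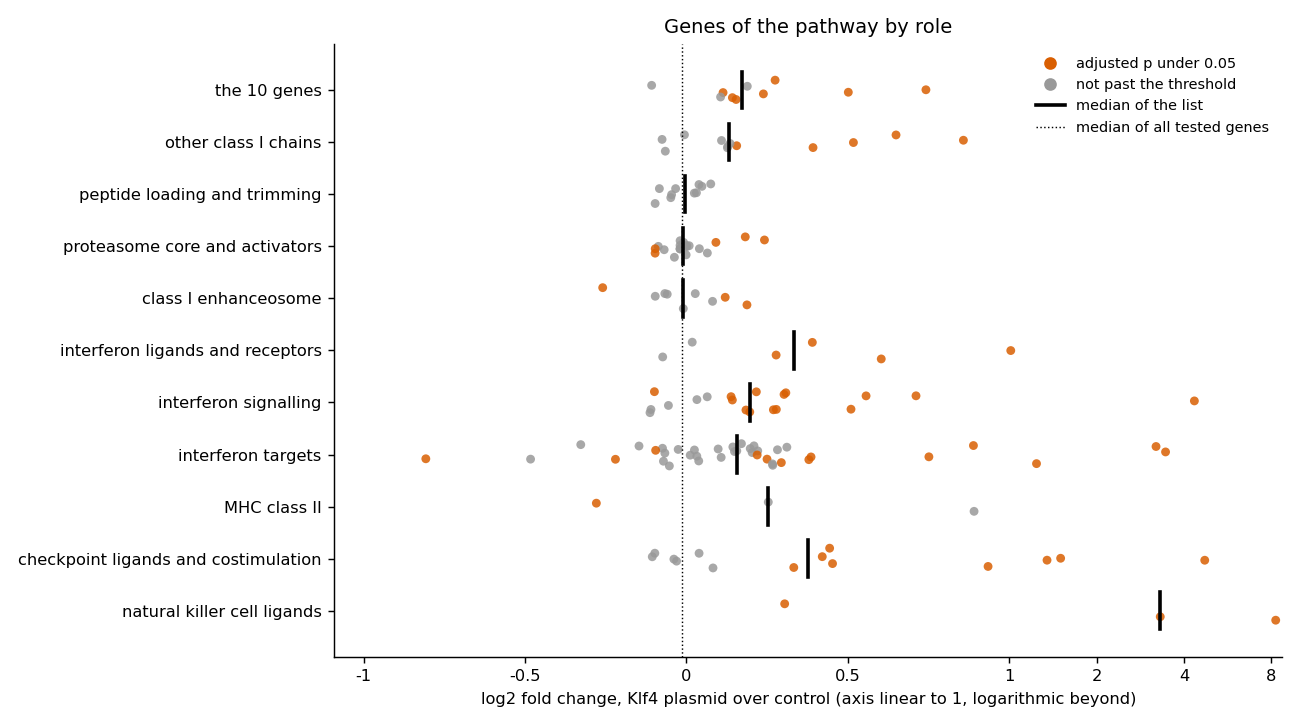
Log2 fold change of every tested gene of the 10 antigen presentation genes and of 10 further lists, by role, on an axis that is linear to 1 and logarithmic beyond. Each point is 1 gene, orange where the edgeR adjusted p is under 0.05, and the vertical bars are list medians, -0.01 for the proteasome list and 0.17 for the 10 genes; the dotted line is the median of all tested genes, -0.01.

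Interferons are the main inducers of this pathway, so their ligands, receptors, signalling genes and targets were listed. Of 16 ligand and receptor genes, 10 ligands fell below the filter: Ifnb1, Ifna1, Ifna2, Ifna4, Ifna5, Ifng and Ifnl3 had 0 counts in all 8 libraries, and the others had at most 2 counts in a library. A count of 0 in a library allows up to 3 counts of its total and covers counting error only. All 6 receptor genes were tested and 4 were called higher and 0 lower (edgeR), as also with DESeq2 and limma-voom, while without adjustment 4 were higher and 1 lower. Of all genes 21.1% were called higher. Ifngr1, the ligand-binding interferon-γ receptor chain, rose from 15.5 ± 1.18 CPM in controls to 23.5 ± 2.25 CPM with Klf4 (SD, n = 4; log2 fold change 0.60 ± 0.05 SE, adjusted p = 1.63e-09, edgeR). Its partner Ifngr2 rose 1.21-fold (adjusted p = 1.02e-05), Ifnlr1, the interferon-λ receptor chain, 2.02-fold (adjusted p = 8.48e-06), and Il10rb, which pairs with it, 1.31-fold (adjusted p = 0.000141). Ifnar1, of the type I receptor, did not pass (log2 fold change -0.07, adjusted p = 0.066), though it was called lower with DESeq2's size factors (0.0489) and without control replicate 1 (0.0474), control replicate 2 (0.0278) or Klf4-transfected replicate 2 (0.0477).

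Among 19 tested interferon signalling genes, 13 were called higher and 1 lower (edgeR), against 21.1% and 15.5% of all genes. Irf1, a factor that binds class I promoters, measured 41.3, 42.3, 45.2 and 44.9 CPM in the control replicates and 51.3, 51.9, 51.6 and 54.7 CPM in the Klf4-transfected ones. Here the groups did not overlap (log2 fold change 0.27 ± 0.04 SE, adjusted p = 3.19e-06, edgeR). Irf5 rose from 0.17 ± 0.08 CPM in controls to 3.51 ± 0.649 CPM with Klf4 (SD, n = 4; 20.3-fold, adjusted p = 2.05e-13, edgeR) and Irf7 1.42-fold (adjusted p = 2.11e-08). Irf5 had 5, 8, 14 and 6 counts in the control replicates and passed the filter through the Klf4-transfected libraries. The count of 13 was thus partly set by the filter. The feedback inhibitor Socs3 rose 1.64-fold (adjusted p = 2.58e-09) and the kinase Jak1 1.14-fold (adjusted p = 1.2e-05). The gene called lower was Ptpn2, a phosphatase of interferon signalling, named after its values were seen (log2 fold change -0.10, edgeR adjusted p = 0.0391). Its call was lost with the replicate block (adjusted p = 0.0619), with factors from abundant genes (adjusted p = 0.208), with the GC and length offset (adjusted p = 0.491), with a filter at 1 CPM (adjusted p = 0.0624) and without control replicate 2, Klf4-transfected replicate 2 or Klf4-transfected replicate 4 (adjusted p = 0.0733, 0.104 and 0.0539).

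Of 39 tested interferon targets outside antigen presentation, 10 were called higher and 3 lower (33.3% in all, edgeR), close to the 36.6% of all genes. Oas2, an antiviral oligoadenylate synthetase, rose from 1.73 ± 0.387 CPM in controls to 4.1 ± 0.685 CPM with Klf4 (SD, n = 4; log2 fold change 1.24 ± 0.14 SE, adjusted p = 2.48e-07, edgeR). Ddx58, which encodes the RNA sensor RIG-I, rose 1.85-fold (adjusted p = 2.17e-09), Xaf1 1.68-fold (adjusted p = 0.00502) and Oasl1 1.31-fold (adjusted p = 0.00131). Ly6e was called lower (log2 fold change -0.10, adjusted p = 0.0357), but not with the replicate block (adjusted p = 0.0614), with factors from abundant genes (adjusted p = 0.184), or without control replicate 3, control replicate 4 or Klf4-transfected replicate 4 (adjusted p = 0.0802, 0.0985 and 0.148). The other genes called lower were Rsad2, which encodes viperin, and the chemokine Cxcl10, both named after their values were seen. Rsad2 had a log2 fold change of -0.22 (adjusted p = 0.0162, 0.0591 without Klf4-transfected replicate 1 and 0.0721 with the GC and length offset) and Cxcl10 of -0.81 (adjusted p = 0.00599, edgeR). The classical targets Isg15 (log2 fold change 0.22, adjusted p = 0.547) and Ifit1 (0.16, adjusted p = 0.517), likewise named after their values were seen, did not pass (edgeR).

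MHC class II genes, which professional antigen-presenting cells use, were mostly below the filter: 3 of 10 were tested. The invariant chain Cd74 was called lower (log2 fold change -0.28, edgeR adjusted p = 0.0357), but not with the replicate block (adjusted p = 0.0516), with DESeq2 (adjusted p = 0.0543), with factors from abundant genes (adjusted p = 0.0769), or without control replicate 2, control replicate 4, Klf4-transfected replicate 1 or Klf4-transfected replicate 2 (adjusted p = 0.105, 0.077, 0.089 and 0.103). The other tested genes of the list did not pass, and their values lay the other way, with all 4 Klf4-transfected libraries above all 4 controls for each. H2-Eb1, a class II β chain, had a log2 fold change of 0.89 ± 0.37 SE (adjusted p = 0.0656, unadjusted p = 0.0254), and H2-DMa, of the peptide-exchange factor H2-DM, one of 0.25 ± 0.12 SE (adjusted p = 0.105, unadjusted p = 0.0458; edgeR). Both were named after their values were seen. The class II chains H2-Aa and H2-Ab1 had at most 7 and 12 counts in a library.

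The last list held ligands of natural killer cell receptors, most of them ligands of NKG2D, a receptor that reads stress on target cells. Of its 7 genes in the table, H60c, Raet1e and Ulbp1 passed the filter. H60c and Raet1e passed it through the Klf4-transfected libraries, where they were high, so no share of calls is read from this list. H60c had 0, 3, 0 and 0 counts in control replicates 1 to 4 and measured 5.4, 4.22, 6.29 and 6.47 CPM in Klf4-transfected replicates 1 to 4. The summed counts, 1142 against 3, gave a ratio of 364 per scaled library size (exact 95% interval 124 to 1767, counting error only; edgeR adjusted p = 2.93e-15). Ulbp1 rose from 6.79 ± 0.235 CPM in controls to 8.37 ± 0.678 CPM with Klf4 (SD, n = 4; log2 fold change 0.30 ± 0.08 SE, adjusted p = 0.00439, edgeR).

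Markers of other cell types also differed between the groups. The summed level of 18 immune cell markers was 9.98 to 10.9 CPM in controls and 11.8 to 14.1 CPM with Klf4. Of its 6 tested markers 3 were called higher and 0 lower (edgeR), against 21.1% and 15.5% of all genes. The counts were the same for DESeq2, limma-voom and unadjusted p. By unadjusted p, 4326 of all 18266 tested genes were higher and 3760 lower. The 3 called markers were Cd79a, Cd4 and Cd8a. Of these, Cd4 and Cd8a passed the filter through the Klf4-transfected libraries, so this count was partly set by the filter. Cd8a had 0, 0, 2 and 0 counts in control replicates and 22, 16, 26 and 49 in Klf4-transfected replicates, and Cd4 had 6, 3, 6 and 12 counts against 34, 32, 36 and 35. Ptprc, the pan-leukocyte marker CD45, had at most 7 counts in a library, and Ms4a1 and Ncr1 had 0 in all 8.

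The sum of 12 stromal and endothelial markers was 6.86 to 8.40 CPM in controls and 26.3 to 32.5 CPM with Klf4. Dcn, which encodes the matrix proteoglycan decorin, made up most of the difference, with 1, 3, 5 and 0 counts in control replicates and 735, 655, 1081 and 1124 in Klf4-transfected replicates. Its Klf4-transfected mean of 17.6 CPM lay above those of Tap2, Psmb8, Psmb9, Cd274 and Nlrc5. Without Dcn the sums were 6.86 to 8.34 CPM in controls and 10.9 to 12.4 CPM with Klf4. Of the 7 tested markers, Dcn, Col1a1, Pdgfra and Cdh5 were called higher (edgeR, against 21.1% of all genes called higher). Pdgfra had 0, 3, 0 and 2 counts in controls and 46, 36, 42 and 44 with Klf4, and Cdh5 had 0 in all controls and 14, 28, 19 and 19 with Klf4. Dcn, Pdgfra, Cdh5, Cd4 and Cd8a passed the filter through the Klf4-transfected libraries alone, so these counts were partly set by the filter. Lum had 0 counts in all libraries. The part of these markers in the values of the antigen presentation genes was not tested.

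The mean standardised level of the 10 genes was -0.19, -0.34, -0.97 and -0.95 SD in control replicates 1 to 4 and 0.82, 0.83, 0.28 and 0.52 SD in Klf4-transfected replicates 1 to 4. It was thus lower in batch 2 within each group. Over the 8 libraries, the genes with the most similar profile among 12003 candidates were Ttc22 (Pearson r 0.997), Ano9 (0.994), the collagen gene Col1a1 (0.993), Cgn, which encodes the tight-junction protein cingulin (0.992), and the ephrin ligand Efnb2 (0.992). These libraries share the plasmid difference and the batches, so the correlations are a description only. Their log2 fold changes were 0.75, 0.99, 1.07, 0.37 and 0.79.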

How the data were processed

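Polyadenylated RNA was measured in 8 libraries, with groups, replicate numbers and batches from the labels. The authors deposited whole-number read counts per gene, not normalised, 1 column per library. Per the submitters' processing notes FastQC, STAR, featureCounts and edgeR were used with the build mm10, and the annotation and strand setting are not given in the sources used here. All 55536 gene identifiers and symbols matched GENCODE M21 (GRCm38), which gave coordinates, exonic lengths and overlaps. Promoters came from RefSeq (GRCm38.p6).

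Counts were analysed with edgeR 4.0.16, limma 3.58.1 and DESeq2 1.42.0 in R 4.3.3. Genes passing filterByExpr (minimum count 10; 18266 genes) were scaled with TMM factors (0.9963 to 1.005) and fitted with batch and group, as the series' design text describes. The quasi-likelihood test of edgeR was used, with Benjamini-Hochberg adjustment over all tested genes and a threshold of 0.05. CPM and RPKM were computed here from the deposited counts. The biological coefficient of variation was 4.08%. The procedure was tested on simulated data. Proteasome ratios were compared by exact permutation over 70 relabellings.

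Same-numbered libraries of the 2 groups deviated together (correlations 0.459 to 0.614 over 10485 genes), but they also share a batch. Libraries of one batch with different numbers were not compared, so these correlations cannot tell pairing from batch. The numbers in the titles were taken as pairs in the replicate block only, and the main fit did not pair libraries. Alternatives were a replicate block, no batch term, other scalings, filters, thresholds and tools, a GC and length offset, and leaving out each library.

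The 10 genes, the 10 pathway lists (185 symbols, 181 of them in the table, 1 through an older name) and the 3 marker lists were chosen with earlier results of these data known. Named beside the 10 genes were Klf4, the proteasome subunits of the ratios, Irf1, up to 4 genes of largest change per list (called, average log2 CPM at least 0, libraries separated within both batches), the most abundant gene of each list, and the 5 protein-coding genes of average log2 CPM at least 1 most like the 10. Likeness used log2(CPM + 0.5). Single-gene values of 2 genes that this rule names are left out of the text, while list counts include them.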

Additional observations from a re-analysis of the deposited data

Results flagged for a closer look

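In a check of 4 libraries at a time for 1 far from the other 3, 134 comparisons were made over the named genes, the ratios and the totals. 3 stood out, where chance gives about 6.7.

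Psmb9 in Klf4-transfected replicate 3 was at 6.88 CPM, while the other 3 Klf4-transfected libraries were at 6.03 to 6.16 CPM. H60c in control replicate 2 was at 0.0616 CPM, which is 3 counts, while the other controls had 0. The total of Klf4-transfected replicate 2 was 45417853 counts, against 51891997 to 52731176 in the other Klf4-transfected libraries.

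The effect of the plasmid on Klf4 itself differed between batches, being 0.37 larger in batch 2 than in batch 1 on the log2 scale (edgeR interaction term, adjusted p = 0.0057).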

How the results depend on the processing

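Without the batch term, 4116 genes, 4 of the 10 antigen presentation genes and 37 genes of the pathway lists were called, against 6684, 7 and 56 with it; H2-D1, B2m and Nlrc5 lost their calls, as did, among the other genes named in the text, Psmb10, Psma4, Psme3, Pomp, Nfya, Ifngr2, Oasl1, Ly6e, Rsad2, Cxcl10, Ptpn2, Cd74 and Fcgrt. With the replicate number as a block, which pairs the libraries, 6284 genes were called, 7 of the 10 genes and 50 of the lists; the block ended the calls of Fcgrt, Ptpn2, Ly6e and Cd74 and changed no other call of a named gene. Leaving out each library in turn gave 5889 to 7074 called genes, 6 to 7 of the 10 and 48 to 56 of the lists. H2-K1, Tap1, Tapbp and Psmb8 kept their calls in all 18 alternatives; Tap2, Psmb9 and Cd274 passed in none (lowest adjusted p 0.0873, 0.0552 and 0.205). Signs turned for genes that did not pass: Psmb6 to 0.015 and Psmb7 to 0.014 with factors from abundant genes, Psmb6 to 0.008, Psmb7 to 0.040 and Cd47 to 0.016 with the GC and length offset, and Psmb7 to 0.004 without control replicate 4 (-0.061 to 0.004 over the libraries left out). Over the 63 genes of the naming rule and those added to it and their alternatives, 1039 of 1131 values kept direction and side of the threshold, 79 lost the call, 7 gained one and 6 turned sign. With single libraries left out, the log2 differences of the proteasome ratios were 0.37 to 0.52 for Psmb8, 0.15 to 0.28 for Psmb9 and 0.19 to 0.33 for Psmb10. Nlrc5 had the fewest counts of the 10 genes, and the widest interval, at 37 to 127 counts per library.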
